A study of Mus musculus with 24 samples.

Results

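The transcripts of 10 core transcription factors of the heart, Nkx2-5, Gata4, Gata6, Mef2a, Mef2c, Mef2d, Tbx5, Tbx20, Hand2 and Srf, were followed in whole hearts of mice aged 90 days. All probe sets annotated to exactly 1 of these symbols were taken, which gave 30 probe sets of the 45037 tested on the Affymetrix array. Mef2a had 6 probe sets and Mef2c had 5. Gata6, Hand2, Mef2d and Tbx20 had 3 each, Gata4, Srf and Tbx5 had 2 each, and Nkx2-5 had 1. The hearts came from 4 genotypes with 6 biological replicates each, 24 arrays in all. ARG mice carried the human beta1-Arg389 cDNA and GLY mice the human beta1-Gly389 cDNA, which encode the Arg389 and Gly389 forms of the beta1-adrenergic receptor. AC5 mice carried the human AC5 cDNA, for adenylyl cyclase type 5, and NTG mice were non-transgenic. In ARG, GLY and AC5 mice the alpha-myosin heavy chain promoter directed the transgene to cardiac myocytes, so each is a model of overexpression of a human cDNA in that cell type. The labels do not give the strain or sex.

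These factors form the network that sets and keeps the identity of heart muscle. Nkx2-5 is a homeodomain protein, Gata4 and Gata6 are zinc finger proteins, Tbx5 and Tbx20 carry a T-box, and Hand2 is a basic helix-loop-helix protein. Mef2a, Mef2c and Mef2d bind A/T-rich sites in muscle genes, and Srf binds the CArG box of contractile and immediate early genes. MEF2 proteins are held inactive by class IIa histone deacetylases, which leave the nucleus when calcium- or protein kinase D-dependent signals phosphorylate them. The beta1-adrenergic receptor raises cyclic AMP through adenylyl cyclases such as AC5 and is the main target of noradrenaline in heart muscle.

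The deposited values are ratios that centre near 1 in NTG hearts, on a linear scale, and changes are differences of their log2 values (fitted difference ± SE, n = 6 hearts per genotype). A ratio holds no signal level, so neither the abundance of a factor nor the presence of heart muscle markers could be checked, and levels of different genes cannot be set against each other. A probe set was called, and is said to have risen or fallen, at a Benjamini-Hochberg adjusted p under 0.05 in limma over all 45037 probe sets. Array medians lay between -0.05 and 0.09 on the log2 scale, and the highest were those of GLY replicate 1 (0.09) and GLY replicate 3 (0.04). These arrays and ARG replicate 1 had the lowest weights when limma estimated a weight per array (0.354, 0.312 and 0.478), so results are also given without these 3 arrays. Results within replicates 1 to 3 and within replicates 4 to 6 stand beside the pooled ones, a split taken from earlier results of these data, for which the labels name no batch. The mean ratio of NTG replicates 1 to 3 lay between 0.947 and 1.05 at the middle 90% of probe sets, and that of NTG replicates 4 to 6 between 0.924 and 1.06. Whether each set was divided by its own NTG hearts is not stated in the sources used here, so the ratios of the 2 sets may not have a common divisor. In hearts taken whole, fewer cells of a type and less RNA per cell cannot be told apart.

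Against NTG, 1 of 6 Mef2a probe sets fell in ARG and 3 fell in GLY, and 1 of 5 Mef2c probe sets fell in each. The single Nkx2-5 probe set rose in ARG, and 1 of 3 Gata6 probe sets rose in GLY. No member was called in AC5 against NTG, and none was called between the 2 receptor forms. In ARG against NTG 3 of 30 member probe sets were called, 1 higher and 2 lower (10%), against 9.67% of all probe sets (4.04% higher and 5.63% lower). In GLY against NTG 5 were called, 1 higher and 4 lower (16.7%), against 5.08% of all (1.55% higher and 3.53% lower). The ARG share was thus near the background, and the GLY count rests on a few related Mef2a probe sets and on 2 hearts, as described beside the values. In the F-test over the 4 genotypes 6 of 30 member probe sets passed (20.0%), against 9.24% of all. They were 1421252_a_at, 1427185_at and 1427186_a_at of Mef2a, 1424852_at of Mef2c, 1422219_a_at of Tbx20 and 1443081_at of Gata6, with adjusted p between 0.0104 and 0.0494.

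**Figure D1:**
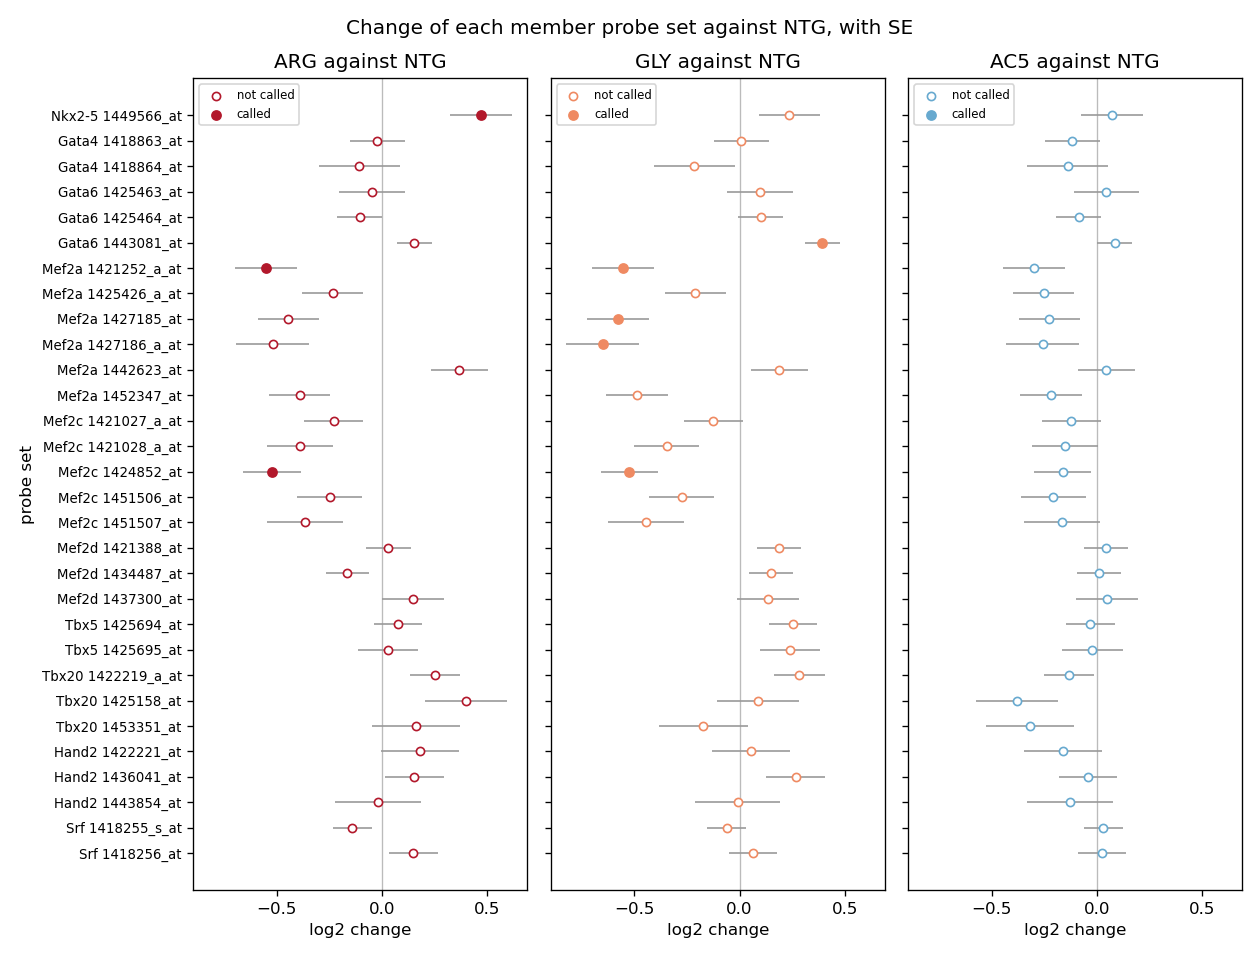
Log2 change of each of the 30 member probe sets (rows, grouped by gene) in ARG, GLY and AC5 hearts against NTG hearts, with the SE of the fitted difference as a bar. Filled points were called at an adjusted p under 0.05. The Mef2a and Mef2c rows lie left of 0 in ARG and GLY, except 1442623_at of Mef2a, and no point is filled in AC5.

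Sequences upstream of 4 of these genes are shown. Mef2a and Mef2c were chosen as the members with probe sets that fell. Nkx2-5, which rose in ARG, and Srf were chosen because Nkx2-5 varied across hearts with the Srf probe set 1418256_at. The sequences are RefSeq promoters of GRCm38.p6, 250 bases before to 50 after the start, written 5′ to 3′ on the gene's strand. Capitals mark matches, on either strand, to TGACG (a part of the cyclic AMP response element), GATAA (GATA factors), AAGTG (NK-2 homeodomain factors), AGGTGT (T-box factors), the MEF2 site or the CArG box.
Mef2a, chr7:67372809-67373108, minus strand: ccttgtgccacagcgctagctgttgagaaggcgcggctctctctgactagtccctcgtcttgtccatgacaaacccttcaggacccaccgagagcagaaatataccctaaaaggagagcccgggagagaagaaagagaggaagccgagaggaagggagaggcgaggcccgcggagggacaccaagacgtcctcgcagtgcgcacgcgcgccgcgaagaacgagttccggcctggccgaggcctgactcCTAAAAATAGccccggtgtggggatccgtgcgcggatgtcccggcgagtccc
Mef2c, the second of 3 starts, chr13:83523406-83523705, plus strand: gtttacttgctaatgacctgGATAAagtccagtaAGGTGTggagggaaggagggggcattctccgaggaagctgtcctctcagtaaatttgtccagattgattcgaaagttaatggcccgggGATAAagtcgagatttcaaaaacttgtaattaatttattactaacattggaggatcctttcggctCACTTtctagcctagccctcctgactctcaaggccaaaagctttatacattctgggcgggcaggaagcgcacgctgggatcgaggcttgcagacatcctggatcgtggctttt
Nkx2-5, chr17:26841516-26841815, minus strand: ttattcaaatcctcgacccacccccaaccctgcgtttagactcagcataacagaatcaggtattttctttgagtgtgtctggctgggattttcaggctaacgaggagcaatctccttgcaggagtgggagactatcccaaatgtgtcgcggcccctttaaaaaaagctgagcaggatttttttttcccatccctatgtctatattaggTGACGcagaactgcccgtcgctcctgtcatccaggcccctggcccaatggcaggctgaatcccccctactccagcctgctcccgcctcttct
Srf, chr17:46556113-46556412, minus strand: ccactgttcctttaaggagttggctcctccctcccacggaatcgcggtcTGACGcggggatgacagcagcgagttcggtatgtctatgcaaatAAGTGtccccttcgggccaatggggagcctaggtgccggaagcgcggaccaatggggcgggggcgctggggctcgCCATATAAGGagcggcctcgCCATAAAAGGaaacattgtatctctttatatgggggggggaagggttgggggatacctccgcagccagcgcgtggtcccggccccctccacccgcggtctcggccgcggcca

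The Mef2a window held a MEF2 site, as 3.19% of all 32851 promoters do, and no other member promoter searched held one. The Srf window held 2 CArG boxes beginning at -82 and -62 from the start, and 1.63% of all promoters hold at least 1. TGACG lay in 4 of 9 member promoters, those of Hand2, Nkx2-5, Srf and Tbx20, and in 20.8% of all. GATAA lay in 2 of 9 and in 25.4% of all, AAGTG in 5 of 9 and in 46.4%, and AGGTGT in 1 of 9 and in 13.7%. Of the 3 Mef2c starts, only the second, the one shown, held GATAA or AGGTGT. The other Mef2c starts held AAGTG alone among the motifs in capitals, so the window shown does not stand for them. The helix-loop-helix motif CANNTG, not put in capitals and which overlaps AAGTG in CAAGTG, lay in 4 of 9 and in 72.3% of all. Promoters of 7 of the 10 genes were searched, with 9 starts. No promoter entry was found for Gata4 and Tbx5. Chromosome 18, where Gata6 lies, was left out of the member search but not of the share over all promoters, so Gata6 is in none of these member counts. These matches describe letters in the windows, and no binding was measured.

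Mef2a, a MADS-box factor abundant in adult heart muscle, was measured by 6 probe sets. The probe set 1421252_a_at gave a lowest, median and highest ratio of 0.528, 0.689 and 0.868 in ARG hearts. The same values were 0.461, 0.737 and 0.858 in GLY hearts, 0.646, 0.742 and 1.04 in AC5 hearts, and 0.772, 0.980 and 1.14 in NTG hearts. The ranges of ARG and GLY each overlapped that of NTG at its lower end, where NTG replicate 5 lay at 0.772. Mef2a by this probe set fell by 0.55 ± 0.15 in ARG against NTG, a 1.46-fold fall (limma, adjusted p = 0.0152), and also by 0.55 ± 0.15 in GLY against NTG (limma, adjusted p = 0.0276). ARG and GLY differed by 0.00 on the log2 scale, with a 95% interval of -0.30 to 0.31. The mean log2 ratios ran upward in the order GLY (-0.59), ARG (-0.59), AC5 (-0.33) and NTG (-0.04), and the neighbours AC5 and NTG did not pass the test (-0.30 ± 0.15, limma, adjusted p = 0.703).

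Probe sets 1427185_at and 1427186_a_at of Mef2a were called in GLY against NTG and not in ARG against NTG, and they share a source sequence in the annotation with 1452347_at, so the 3 are not independent measures. For 1427185_at the lowest, median and highest ratios were 0.643, 0.708 and 0.860 in ARG hearts, 0.433, 0.787 and 0.825 in GLY hearts, 0.655, 0.853 and 1.01 in AC5 hearts, and 0.859, 0.964 and 1.09 in NTG hearts. Every GLY heart lay below every NTG heart, whereas the highest ARG heart touched the lowest NTG heart. The change was -0.45 ± 0.15 in ARG against NTG (limma, adjusted p = 0.0504) and -0.58 ± 0.15 in GLY against NTG (limma, adjusted p = 0.0190), and ARG against GLY gave 0.13 (95% interval -0.17 to 0.43). For 1427186_a_at the corresponding ratios were 0.534, 0.666 and 0.833 in ARG hearts, 0.369, 0.731 and 0.801 in GLY hearts, 0.640, 0.735 and 1.06 in AC5 hearts, and 0.788, 0.968 and 1.12 in NTG hearts. Only the upper end of the ARG and GLY ranges reached the lowest NTG hearts. That probe set fell by 0.65 ± 0.17 in GLY against NTG (limma, adjusted p = 0.0273), and its change in ARG was -0.52 ± 0.17 (limma, adjusted p = 0.0586).

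The other 3 Mef2a probe sets were not called in any comparison. The change of 1452347_at was -0.39 ± 0.15 in ARG and -0.49 ± 0.15 in GLY against NTG, with adjusted p of 0.0998 and 0.0515 (limma), of which the GLY value lay just outside the threshold. The change of 1425426_a_at was -0.23 in ARG and -0.21 in GLY. The probe set 1442623_at ran the other way, at 0.37 ± 0.14 in ARG (limma, adjusted p = 0.0946) and 0.19 in GLY, so the probe sets of Mef2a disagree in sign, and which transcripts each one reads was not tested.

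Mef2c, the MEF2 factor needed for heart looping and expressed in muscle and in endothelial cells, had 5 probe sets, and all 5 gave a negative change in ARG and in GLY against NTG. Only 1424852_at was called. Its lowest, median and highest ratios were 0.543, 0.706 and 0.837 in ARG hearts, 0.422, 0.760 and 0.871 in GLY hearts, 0.783, 0.865 and 0.948 in AC5 hearts, and 0.873, 0.968 and 1.07 in NTG hearts. Every ARG heart and every GLY heart lay below every NTG heart, and the AC5 hearts lay between and overlapped all 3 other groups. Mef2c by this probe set fell by 0.52 ± 0.14 in ARG against NTG, a 1.44-fold fall (limma, adjusted p = 0.0116), and by 0.52 ± 0.14 in GLY against NTG (limma, adjusted p = 0.0223). Non-overlapping groups were found at 3 member probe sets in ARG against NTG (10%, against 6.11% of all) and at 3 in GLY against NTG (10%, against 2.68% of all). The difference between ARG and GLY was 0.00 (95% interval -0.28 to 0.28). The other 4 Mef2c probe sets gave changes of -0.39 to -0.23 in ARG and -0.44 to -0.12 in GLY, and 1451506_at and 1451507_at share a source sequence with 1424852_at.

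**Figure D2:**
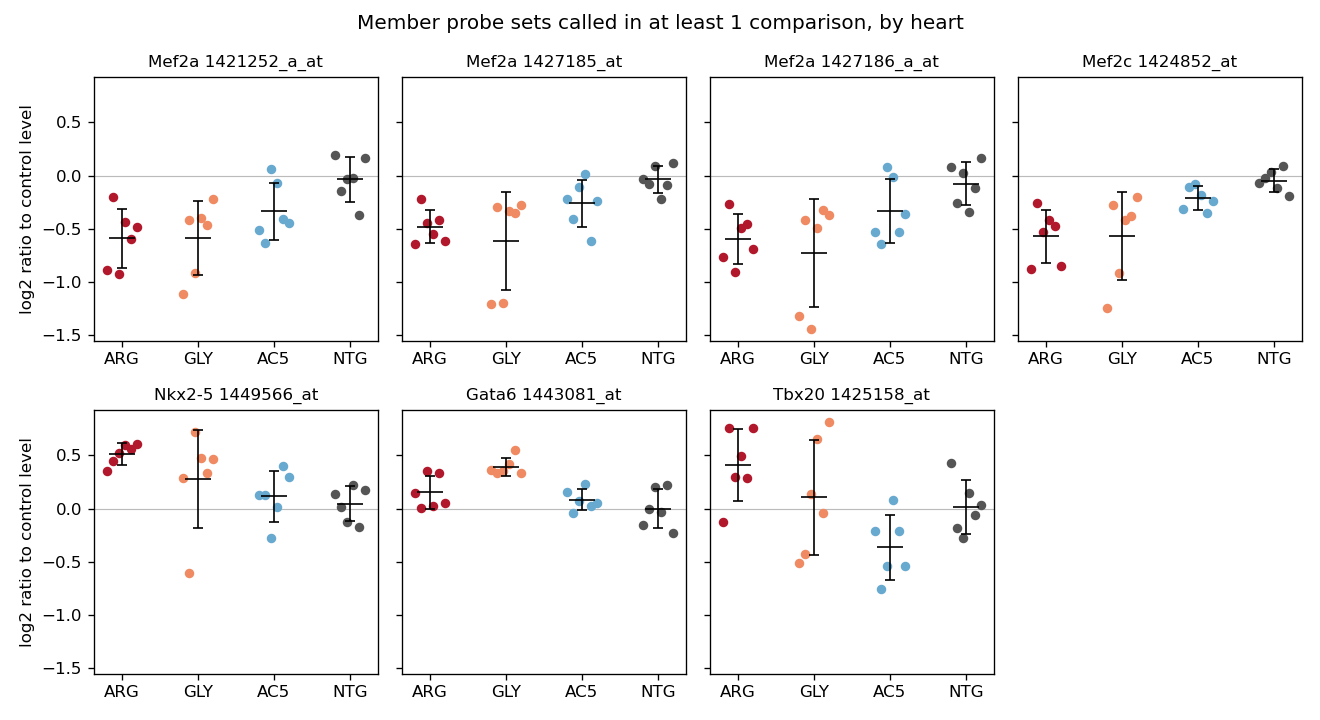
Log2 ratio of each heart (points) for the 7 member probe sets called in at least 1 comparison, with the mean and SD of the 6 hearts of each genotype as lines. The 2 lowest GLY hearts at the Mef2a and Mef2c panels stand below the other 4, and the ARG hearts of Nkx2-5 and the GLY hearts of Gata6 1443081_at all lie above the NTG hearts.

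The 2 lowest GLY hearts were replicates 1 and 3 at 5 of 6 Mef2a probe sets and at 5 of 5 Mef2c probe sets, and at none of the other 19 member probe sets. At 1421252_a_at of Mef2a they gave 0.461 and 0.530, whereas the other 4 GLY hearts lay between 0.724 and 0.858. At 1424852_at of Mef2c they gave 0.422 and 0.530, whereas the other 4 lay between 0.749 and 0.871. Without these hearts and ARG replicate 1, the GLY against NTG changes were -0.34 for 1421252_a_at, -0.28 for 1427185_at, -0.32 for 1427186_a_at and -0.27 for 1424852_at, and none was called (limma, adjusted p = 0.200, 0.143, 0.232 and 0.128). Leaving out GLY replicate 1 or GLY replicate 3 alone also ended each of these 4 GLY calls. Leaving out NTG replicate 3 ended the GLY calls of 1421252_a_at, 1427186_a_at and 1424852_at, and leaving out NTG replicate 1 or NTG replicate 6 ended those of 1421252_a_at and 1427186_a_at. Within replicates 1 to 3 the changes of 1421252_a_at, 1427185_at, 1427186_a_at and 1424852_at were -0.82, -0.89, -1.0 and -0.79, and within replicates 4 to 6 they were -0.29, -0.26, -0.30 and -0.26, where none was called. In GLY 3 of the 5 Mef2c probe sets stayed below 0 within replicates 4 to 6 and 3 did without the 3 low-weight arrays, and all 5 did after quantile normalization and with array weights.

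In ARG all 5 Mef2c probe sets and 5 of the 6 Mef2a probe sets stayed below 0 in each of the 8 other fits. With a replicate block, a set term or 2 genotypes alone the estimate stays the same by construction. Only the other fits could have changed a sign. The ARG against NTG calls of 1421252_a_at and 1424852_at were kept in all 24 fits that left out 1 array. Leaving out a GLY or AC5 array could not move these changes, only the shared spread and the adjustment. Without the 3 low-weight arrays the changes were -0.49 (limma, adjusted p = 0.00936) and -0.46 (limma, adjusted p = 0.000623). In that fit 6 of the 30 member probe sets were called, 4 of them Mef2a. Calls over all 45037 probe sets also rose there, to 5931 from 4355 with all 24 arrays. Within replicates 1 to 3 the changes were -0.67 and -0.54 and were not called, and within replicates 4 to 6 they were -0.43, not called, and -0.51, called (limma, adjusted p = 0.0271). After quantile normalization Mef2c 1424852_at still fell in ARG (-0.42, limma, adjusted p = 0.00531), 1421252_a_at did not pass (-0.41, limma, adjusted p = 0.0853) and 1427185_at of Mef2a did (-0.36, limma, adjusted p = 0.0316).

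**Figure D3:**
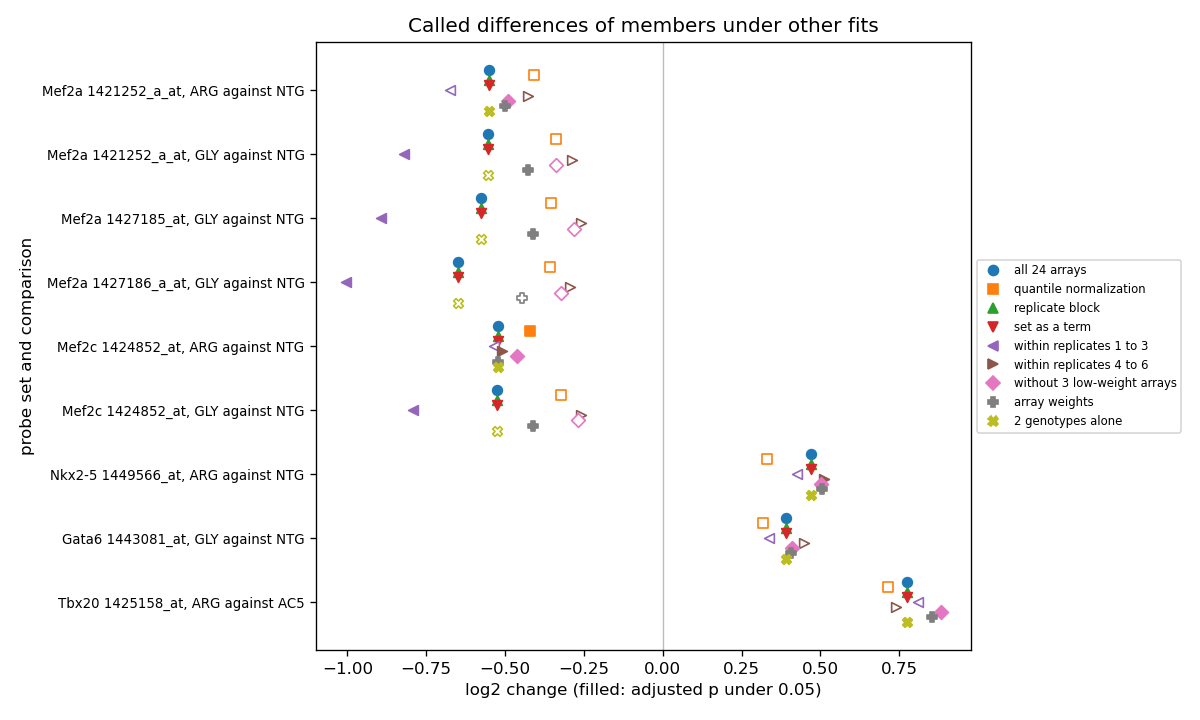
Log2 change of the 9 called differences of members (rows) in the fit to all 24 arrays and in 8 other fits (symbols), filled where the adjusted p was under 0.05. The GLY falls of Mef2a and Mef2c are larger within replicates 1 to 3 and smaller, with open symbols, without the 3 low-weight arrays.

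Mef2d, the MEF2 factor known for stress-dependent remodelling of the mouse heart, was not called by any of its 3 probe sets. For 1421388_at the lowest, median and highest ratios were 0.809, 0.977 and 1.34 in ARG hearts, 0.973, 1.12 and 1.39 in GLY hearts, 0.886, 1.02 and 1.21 in AC5 hearts, and 0.855, 1.00 and 1.15 in NTG hearts. The 4 ranges overlapped. Its change was 0.03 in ARG against NTG (95% interval -0.19 to 0.25) and 0.19 in GLY against NTG (95% interval -0.03 to 0.40), and whether Mef2d differed from Mef2a or Mef2c in its response was not tested. Of all member differences between ARG and GLY the one farthest below 0 was at 1434487_at of Mef2d (-0.31 ± 0.10, limma, adjusted p = 0.142).

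Srf, which with myocardin-related cofactors drives contractile genes, was not called by either of its probe sets, which share a source sequence. For 1418256_at the lowest, median and highest ratios were 0.974, 1.07 and 1.32 in ARG hearts, 0.777, 1.11 and 1.19 in GLY hearts, 0.812, 0.979 and 1.38 in AC5 hearts, and 0.878, 0.997 and 1.16 in NTG hearts. The 4 groups overlapped, and its change was 0.15 ± 0.12 in ARG against NTG (limma, adjusted p = 0.557). The change of 1418255_s_at was -0.14 ± 0.09 in the same comparison, of the opposite sign.

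Nkx2-5, a homeodomain factor whose loss stops heart development in the mouse and which stays on in adult myocytes, was higher in ARG. Its probe set 1449566_at gave a lowest, median and highest ratio of 1.28, 1.45 and 1.52 in ARG hearts, 0.657, 1.32 and 1.65 in GLY hearts, 0.826, 1.09 and 1.32 in AC5 hearts, and 0.886, 1.06 and 1.17 in NTG hearts. Every ARG heart lay above every NTG heart, and the GLY range, with a single low heart, spanned all other groups. Nkx2-5 rose by 0.47 ± 0.15 in ARG against NTG, a 1.38-fold rise (limma, adjusted p = 0.0394). Its change in GLY against NTG was 0.24 ± 0.15 (limma, adjusted p = 0.412), and ARG against GLY gave 0.23 (95% interval -0.07 to 0.53), so ARG and GLY were not shown to differ. The ARG call was kept in 15 of 24 fits that left out 1 array and was lost without ARG replicate 2, 3, 4, 5 or 6 or NTG replicate 1, 2, 3 or 5 (highest adjusted p 0.0928). Leaving out a GLY or AC5 array could not move the change itself, and every loss came from an ARG or NTG array. The call was also lost after quantile normalization (0.33, limma, adjusted p = 0.215). Within replicates 1 to 3 the change was 0.43 and not called, and within replicates 4 to 6 it was 0.51 and called (limma, adjusted p = 0.0250).

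Gata4, the zinc finger factor that partners Nkx2-5, Srf and Mef2c on hypertrophy genes, was not called. For 1418863_at the lowest, median and highest ratios were 0.805, 1.00 and 1.10 in ARG hearts, 0.623, 1.08 and 1.13 in GLY hearts, 0.799, 0.894 and 0.985 in AC5 hearts, and 0.799, 0.934 and 1.24 in NTG hearts. All ranges overlapped, and the change in ARG against NTG was -0.02 (95% interval -0.29 to 0.24). The other Gata4 probe set, annotated to the same transcript, gave changes of -0.11 in ARG and -0.22 in GLY, with adjusted p of 0.844 and 0.605 (limma).

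Gata6, which shares DNA sites with Gata4 and acts with it in the heart, was called only by 1443081_at and only in GLY against NTG. Its lowest, median and highest ratios were 1.01, 1.07 and 1.27 in ARG hearts, 1.26, 1.28 and 1.46 in GLY hearts, 0.970, 1.05 and 1.18 in AC5 hearts, and 0.855, 0.989 and 1.16 in NTG hearts. All GLY hearts lay above all NTG hearts and, as the only such member probe set in GLY against AC5 (3.33%, against 0.995% of all), above all AC5 hearts, and the highest ARG hearts reached into the GLY range. The probe set rose by 0.39 ± 0.08 in GLY against NTG, a 1.31-fold rise (limma, adjusted p = 0.00590), and its change against AC5 was 0.31 ± 0.08 (limma, adjusted p = 0.0831). The other 2 Gata6 probe sets, 1425463_at and 1425464_at, which share a source sequence, gave changes of 0.10 each and were not called. The call was kept in all 24 fits that left out 1 array and without the 3 low-weight arrays (0.41, limma, adjusted p = 0.0181). Leaving out an ARG or AC5 array could not move the change itself. The call was lost after quantile normalization (0.32, limma, adjusted p = 0.137), within replicates 1 to 3 (0.34) and within replicates 4 to 6 (0.45).

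Tbx20, a T-box factor that maintains adult mouse heart muscle, was called in ARG against AC5, where 1 of 30 member probe sets passed (3.33%), against 4.93% of all probe sets, 2.52% of all being called higher. For 1425158_at the lowest, median and highest ratios were 0.916, 1.32 and 1.69 in ARG hearts, 0.701, 1.04 and 1.76 in GLY hearts, 0.591, 0.776 and 1.06 in AC5 hearts, and 0.825, 0.991 and 1.35 in NTG hearts. The ARG and AC5 ranges overlapped at 1 ARG heart, replicate 1 at 0.916. Tbx20 by this probe set was higher by 0.77 ± 0.19 in ARG than in AC5, 1.71-fold (limma, adjusted p = 0.0159). Neither side was called against NTG, with 0.40 ± 0.19 for ARG and -0.38 ± 0.19 for AC5 (limma, adjusted p = 0.254 and 0.728). At 1422219_a_at the ARG hearts (1.15, 1.19 and 1.30) lay above the AC5 hearts (0.688, 0.973 and 1.11) and above the NTG hearts (0.922, 1.01 and 1.14) without overlap, and in ARG against AC5 it was the only such member, against 3.07% of all. Its changes of 0.38 ± 0.12 against AC5 and 0.25 ± 0.12 against NTG were not called (limma, adjusted p = 0.0619 and 0.231). The call of 1425158_at was kept in all 24 fits that left out 1 array. Leaving out a GLY or NTG array could not move that change itself. The call was lost after quantile normalization (0.72, limma, adjusted p = 0.0560), within replicates 1 to 3 (0.81) and within replicates 4 to 6 (0.74).

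Tbx5, the T-box factor mutated in Holt-Oram syndrome in humans, was not called. For 1425694_at the lowest, median and highest ratios were 0.906, 1.13 and 1.18 in ARG hearts, 0.903, 1.21 and 1.53 in GLY hearts, 0.868, 1.01 and 1.22 in AC5 hearts, and 0.846, 1.05 and 1.26 in NTG hearts. The ranges overlapped, with changes of 0.08 in ARG and 0.25 in GLY against NTG (95% intervals -0.16 to 0.31 and 0.02 to 0.49). The adjusted p for GLY was 0.226 (limma), so the interval excludes 0 for this probe set alone but the call does not survive adjustment over the array. Both Tbx5 probe sets share a source sequence.

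Hand2, which shapes the right ventricle in the mouse embryo, was not called. For 1422221_at the lowest, median and highest ratios were 1.05, 1.08 and 1.43 in ARG hearts, 0.550, 1.15 and 1.46 in GLY hearts, 0.728, 0.922 and 1.14 in AC5 hearts, and 0.683, 1.06 and 1.35 in NTG hearts. The ranges overlapped, and the 3 Hand2 probe sets gave changes of -0.02 to 0.18 in ARG and -0.01 to 0.27 in GLY against NTG.

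AC5 hearts gave no called member in AC5 against NTG, where 0.142% of all probe sets were called, and no member had an unadjusted p under 0.05 there by limma, as 7.26% of all probe sets did. Of the 30 member probe sets 21 had a negative change, with a median of -0.13 on the log2 scale against 0.00 for all probe sets. Same-sign changes within replicates 1 to 3 and within replicates 4 to 6 were seen at 20 of 30. In ARG against GLY no member was called by limma, against 1.51% of all probe sets, and 2 had an unadjusted p under 0.05 (6.67%, against 13.5% of all). In GLY against AC5 no member was called by limma, against 0.693% of all, and 8 had an unadjusted p under 0.05 (26.7%, against 11.8% of all). The member median was -0.04 in ARG against NTG and 0.03 in GLY against NTG, beside 0.00 and 0.03 for all probe sets. The comparisons with NTG share the same 6 NTG hearts.

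The spread between hearts of a genotype was wider for these probe sets than for the array as a whole. The median SD over the 30 member probe sets was 0.25 in ARG, 0.35 in GLY, 0.18 in AC5 and 0.18 in NTG on the log2 scale. Over all 45037 probe sets it was 0.18 in ARG, 0.19 in GLY, 0.14 in AC5 and 0.13 in NTG. The median SE of a member's change was 0.15, against 0.10 for all probe sets, and the SE shares 1 spread over 4 genotypes that differed in spread.

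With each genotype's mean subtracted, pairs of probe sets of different genes gave r from -0.67 to 0.87 over the 24 hearts. Their median was -0.01 over 395 pairs, so positive and negative values balanced. Pairs of the same gene gave r from -0.36 to 0.94, with a median of 0.54 over 40 pairs. These are descriptions over hearts that share arrays and normalization. Of the 6 Mef2a probe sets, the 4 with a negative change and an adjusted p under 0.1 gave a median r of 0.88. These 4 were picked by their own results and 3 of them share a source sequence, so this value does not describe all 6. The 5 of Mef2c gave a median of 0.79. All 30 pairs of a Mef2a with a Mef2c probe set gave a median of 0.66. Without the 3 low-weight arrays these medians were 0.76, 0.57 and 0.44. Nkx2-5 varied with 1418256_at of Srf (r = 0.82, and 0.84 without the 3 arrays) and with 1418863_at of Gata4 (r = 0.79, and 0.80 without them). Without GLY replicate 2, an alternative chosen after seeing the data, these were 0.81 with Srf and 0.58 with Gata4, so the pair of Nkx2-5 and Gata4 rests in part on that heart. The pair of Nkx2-5 and 1418256_at was among the highest of the 395 pairs of different genes. Both Srf probe sets gave only r = 0.24 with each other, so that pair does not stand for Srf as a whole. Both Gata4 probe sets gave r = 0.89 with each other. The 1443081_at probe set of Gata6 gave r = -0.36 with 1425463_at and -0.05 with 1425464_at, which gave r = 0.73 with each other. The most negative pair was 1421388_at of Mef2d with 1453351_at of Tbx20 (r = -0.67).

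**Figure D4:**
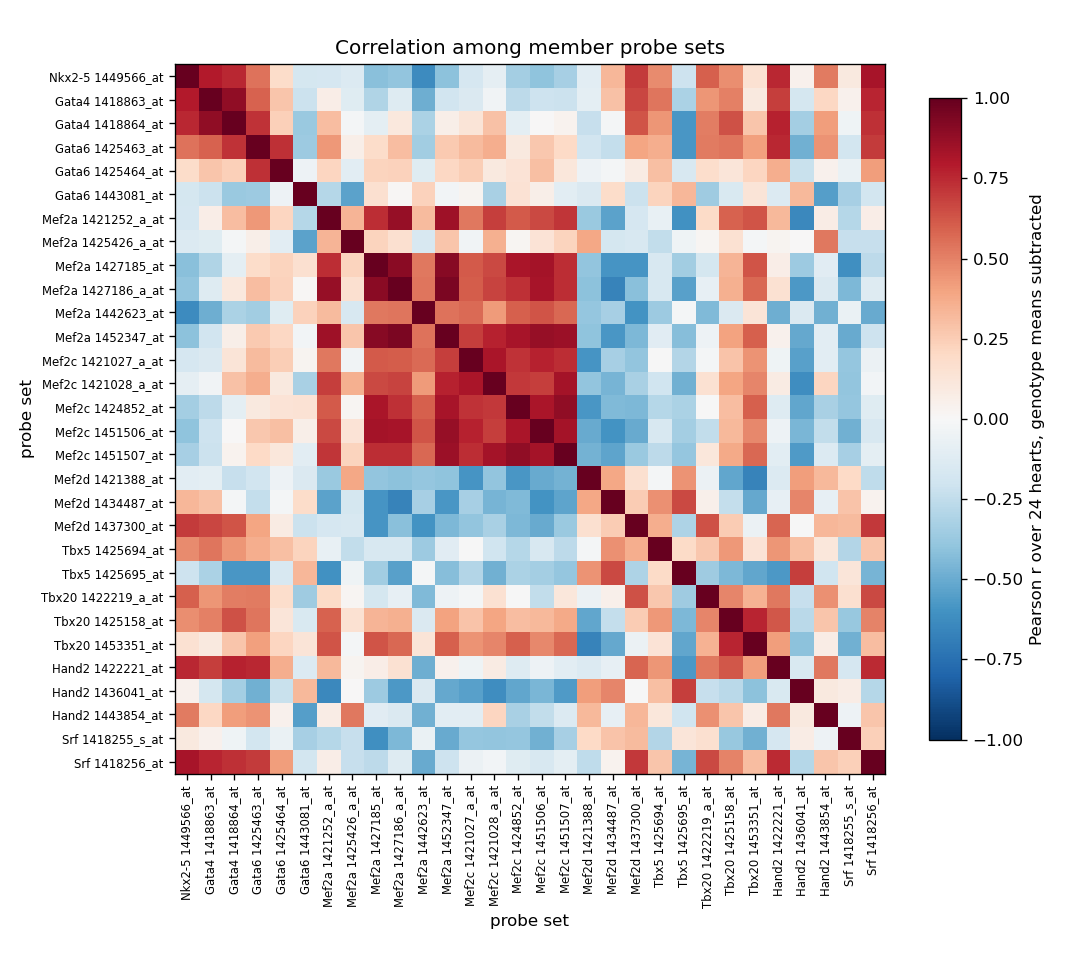
Pearson r between member probe sets over 24 hearts after subtraction of each genotype's mean, with red above 0 and blue below 0 and rows grouped by gene. A red block joins the Mef2a and Mef2c probe sets, and another set of red cells joins Nkx2-5, Gata4, 1425463_at of Gata6, 1422221_at of Hand2 and 1418256_at of Srf. Part of this second set rests on GLY replicate 2. Without that heart Nkx2-5 with 1422221_at went from r = 0.75 to 0.51, whereas 1425463_at with 1422221_at stayed at 0.75.

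The genes whose pattern over the 24 hearts was most like that of a member were ranked by the same residual r, using for each gene the probe set of largest F, which for Tbx20 was 1422219_a_at. For Nkx2-5 they were Map1lc3a (0.96), Akt1s1 (0.93) and Fzr1 (0.92), which encode an autophagosome protein, a substrate of the kinase Akt and an activator of the anaphase-promoting complex. For Mef2a they were Rrm2b (0.91), a subunit of ribonucleotide reductase, Nr3c1 (0.90), the glucocorticoid receptor, and Cul3 (0.89), a ubiquitin ligase scaffold. For Mef2c they were Cpne3 (0.93), a calcium-dependent membrane-binding protein, Gnaq (0.93), the Gq alpha subunit, and 2610005L07Rik (0.92). For Gata6 1443081_at they were Gm17250 (0.73), Npff (0.70) and Cyp26b1 (0.69), a retinoic acid hydroxylase, and for Tbx20 they were Ubqln1 (0.77), Atg13 (0.76) and Mecr (0.76). Without the 3 low-weight arrays Map1lc3a still gave 0.96 with Nkx2-5, and Cpne3 gave 0.77 with Mef2c.

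Partners and inhibitors of the member factors were taken from a list of 44 genes, 43 of them measured with 1 probe set each. In ARG against NTG 5 fell and none rose, and in GLY against NTG 4 fell and none rose (11.6% and 9.30% of the 43, against 9.67% and 5.08% of all probe sets), with medians of -0.01 and -0.03 beside 0.00 and 0.03 for all probe sets. Hdac9, a class IIa histone deacetylase that represses MEF2 proteins, fell by 0.82 ± 0.17 in ARG (limma, adjusted p = 0.00153) and by 0.62 ± 0.17 in GLY (limma, adjusted p = 0.0308) at 1 of its 2 probe sets. Lmcd1, a LIM protein that restrains GATA6, fell by 0.76 ± 0.17 in ARG and by 0.72 ± 0.17 in GLY (limma, adjusted p = 0.00319 and 0.0119). The other falls, named here after their values were seen, were those of Cavin4, a muscle caveolar protein, by 0.52 in ARG and by 0.44 in GLY, of Hopx, an Srf-binding inhibitor, by 0.50 in ARG, of the kinase gene Mapk14 by 0.37 in ARG (at 1 of 6 probe sets), and of Camk2d, a kinase that phosphorylates class IIa deacetylases, by 0.58 in GLY (at 2 of 7). In ARG against AC5 3 fell (6.98% of the 43, against 4.93% of all probe sets called). In AC5 against NTG, ARG against GLY and GLY against AC5 none of the 43 was called, where 0.142%, 1.51% and 0.693% of all probe sets were.

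Of 43 measured other transcription factors of the heart, 4 rose and 2 fell in ARG against NTG, and 2 rose and none fell in GLY against NTG (14.0% and 4.65%, against 9.67% and 5.08% of all probe sets). Myc, a growth factor-induced regulator, rose by 0.83 ± 0.15 in ARG (limma, adjusted p = 0.000283) and Zbtb16, a zinc finger repressor, rose by 0.56 ± 0.13. Jun, a subunit of AP-1, fell by 0.60 ± 0.10 in ARG, and Irx4, a homeodomain factor of the ventricle, fell by 0.35 ± 0.06. Meis1 rose by 0.53 at the probe set counted but another of its probe sets was called the other way, and Tcf21, also on the fibroblast list, rose by 0.31 at 1 of its 2 probe sets. Meis1 and Tcf21 were named after their values were seen. In GLY the rises were Irx1 (0.38 ± 0.11) and Irx2 (0.34 ± 0.09). In ARG against GLY 9.30% of the 43 were called, against 1.51% of all probe sets. Zbtb16 was higher in ARG by 0.54, and Klf2, Jun and Irx4 were lower, with changes of -0.76, -0.61 and -0.34.

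Of 45 measured heart muscle genes with known binding or response to these factors, 3 rose and 6 fell in ARG against NTG (20.0%, against 9.67% of all probe sets), and 2 fell and none rose in GLY against NTG (4.44%, against 5.08% of all). In AC5 against NTG 1 rose (2.22%, against 0.142% of all), the slow myosin heavy chain gene Myh7, by 0.94 ± 0.19 (limma, adjusted p = 0.0369). The natriuretic peptide genes Nppa and Nppb, targets of Gata4, Nkx2-5 and Srf, rose by 1.20 ± 0.30 and 0.91 ± 0.16 in ARG. Acta1, skeletal alpha-actin and an Srf target, fell by 2.47 ± 0.36 in ARG and fell by 1.83 ± 0.36 in GLY. Ttn, the titin gene, fell by 0.33 ± 0.09 in ARG and fell by 0.41 ± 0.09 in GLY at the probe set counted, 1 of 6, and no other Ttn probe set was called in either. In ARG against GLY 4 were called (8.89%, against 1.51% of all): Nppa, Nppb and Myh7 were higher in ARG, by 1.16 ± 0.30, 0.65 ± 0.16 and 1.03 ± 0.19, and Irx4, which is on both lists, was lower. Nppb was named there after its values were seen. The list median was -0.01 in ARG, 0.00 in GLY and -0.07 in AC5, each against NTG.

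Markers of other cell types moved in the same hearts. In ARG against NTG 9 of 16 macrophage markers and 8 of 12 fibroblast markers rose and none fell, while 4 of 14 endothelial, 2 of 12 smooth muscle and pericyte, and 2 of 12 cardiac myocyte markers fell and none rose, where 4.04% of all probe sets rose and 5.63% fell. The mean log2 ratio of the macrophage list ran over 0.20 to 0.87 in ARG hearts and -0.07 to 0.09 in NTG hearts, and that of the fibroblast list over 0.16 to 0.94 in ARG hearts and -0.19 to 0.02 in NTG hearts. That of the cardiac myocyte list ran over -0.26 to -0.05 in ARG hearts, -0.28 to 0.06 in GLY hearts and -0.15 to 0.14 in NTG hearts. The endothelial list, which bears on Mef2c, ran over -0.44 to -0.04 in ARG hearts, -0.47 to 0.03 in GLY hearts and -0.16 to 0.12 in NTG hearts. In GLY against NTG 1 of 16 macrophage, 2 of 14 endothelial, 1 of 12 smooth muscle and 1 of 12 myocyte markers fell and 1 of 12 fibroblast markers rose, where 1.55% of all probe sets rose and 3.53% fell. Of 9 atrial markers measured 1 rose in ARG, Nppa, and none was called in GLY. None of these lists had a called gene in AC5 against NTG, where 0.142% of all probe sets were called. Their part in the changes of the transcription factors was not tested, and a ratio cannot show which markers are at 0.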

How the data were processed

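RNA was extracted from hearts with Trizol, checked on a Bioanalyzer, and biotinylated cRNA was hybridised to Affymetrix arrays, per the labels' protocols. The submitters' processing notes name RMA, with no version in the sources used here. The authors deposited ratios on a linear scale that centre near 1 in NTG. Neither the divisor nor the scale is stated, and both were read from the values. Of 45101 probe sets, 64 Affymetrix controls were left out. Of the 45037 tested, 34945 carried 1 gene symbol, 932 more than 1 and 9160 none.

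Log2 of the ratio was fitted with limma 3.58.1 in R 4.3.3 over 24 arrays, with 1 mean per genotype and empirical Bayes. Each comparison's p-values were adjusted by Benjamini-Hochberg over all probe sets and called under 0.05, with an F-test over the 4 genotypes. No filter on brightness could be applied. The number of arrays limits the precision. On simulated data for ARG against NTG over 45037 probe sets, 59 of 100 changes of 0.5 and 97 of 100 changes of 1 were recovered. No other probe set was changed there, whereas 4355 were called in the data. The noise was independent, with 1 SD per probe set in all genotypes. The changed probe sets came from the whole array, and the median SE of members was wider (0.15 against 0.10). These rates therefore do not give the share of member changes that would be called. Figures were drawn with matplotlib 3.10.9, and tables with pandas 2.3.3 on Python 3.11.15.

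Every heart is given for member probe sets called at least once and, for other member genes, for 1 probe set chosen by suffix and number. Lists took 1 probe set per gene the same way. The list genes named were the 2 largest rises and falls among called genes, and others are marked in the text. The members and lists were chosen with earlier results of these data known. Alternatives were quantile normalization, a replicate block, a set term, each set alone, array weights, 3 arrays left out, 2 genotypes alone, and each array left out. Replicate numbers were not taken to pair hearts: of 36 pairs of same-numbered hearts, 6 for each pair of genotypes, 16 had a correlation over 0.1 (lowest r = -0.29, highest 0.49). ARG with GLY had 5 of 6 over 0.1 (0.05 to 0.49), ARG with AC5 5, GLY with AC5 3, GLY with NTG 2, AC5 with NTG 1 and ARG with NTG none.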

Additional observations from a re-analysis of the deposited data

Results flagged for a closer look

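Of 120 groups of 6 hearts (30 probe sets in 4 genotypes) 4 had a heart whose gap to the next, divided by the range, was above Dixon's 95% critical value, where chance alone flags about 1 in 20 groups. GLY replicate 2 stood below the other GLY hearts at Nkx2-5 1449566_at, with a ratio of 0.657 and the next at 1.22. The same heart gave 0.623 at Gata4 1418863_at, with the next at 0.995, and 0.441 at Gata4 1418864_at, with the next at 0.841. It was the lowest GLY heart at 10 of 30 member probe sets, in 8 of the 10 genes. Such a count was not particular to this heart. GLY replicate 1 was the lowest GLY heart at 12, in 4 genes. AC5 replicate 2 and NTG replicate 5 were each the lowest of their genotype at 10, in 7 and 6 genes. The correlation of Nkx2-5 with 1418863_at of Gata4 was 0.79 over all hearts and 0.58 without GLY replicate 2. ARG replicate 3 gave 0.735 at Srf 1418255_s_at, with the next ARG heart at 0.880. None of these 4 probe sets was called in the genotype concerned.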

How the results depend on the processing

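Of 5760 alternative values of the 180 member differences, 48 gained a call and 5659 stayed on their side of the threshold. Of these last, 267 changed sign while not called in either fit. Only the 9 called differences could lose a call. They did so in 53 of their own alternative values, a far larger share than 53 of 5760, and none reversed. Many of the alternatives could not reverse a difference or change its sign, because the estimate stays the same in them. These were the replicate block, the set term, 2 genotypes alone and the fits without an array outside the comparison. After quantile normalization only the ARG against NTG fall of Mef2c 1424852_at was kept among the 9 called differences. Counts of called member probe sets moved as follows. In ARG against NTG (3) there were 5 when the set entered as a term, 0 within replicates 1 to 3, 6 without 3 arrays, 6 with array weights and 7 with these 2 genotypes alone. Calls over all probe sets in these fits were 4759, 1302, 5931, 5855 and 5022, against 4355 in the main analysis. In GLY against NTG (5) there were 0 after quantile normalization, 0 within replicates 4 to 6, 1 without 3 arrays and 1 with these 2 genotypes alone. In ARG against AC5 (1) there were 0 after quantile normalization and within each set, 2 when the set entered, 4 without 3 arrays, 4 with array weights and 3 alone. Calls over all probe sets in the last 4 of these fits were 2514, 3540, 2988 and 2218, against 2220 in the main analysis. The F-test (6) gave 1 after quantile normalization and 0 within each set. With a replicate block, which rests on shared numbers only, the counts were 3 for ARG and 5 for GLY when set against NTG, 2 in ARG against AC5, 0 in the other 3 comparisons and 6 in the F-test, and no heart correlated best with its own number in every other genotype (12 of 72 best matches). Leaving out 1 array gave 2 to 6 for ARG and 1 to 7 for GLY when set against NTG, 0 to 1 in ARG against GLY, 1 to 2 in ARG against AC5 and 2 to 8 in the F-test, and 0 in AC5 against NTG and in GLY against AC5. The ARG against NTG count moved by over 1.5 times without GLY replicate 1 or 3. The GLY against NTG count did so without NTG replicate 1, 3 or 6 or GLY replicate 1 or 3, that of ARG against GLY without GLY replicate 6, that of ARG against AC5 without AC5 replicate 5 or GLY replicate 1, 2 or 3, and that of the F-test without NTG replicate 1, 2, 3, 5 or 6, GLY replicate 3 or ARG replicate 4. The causes were not tested, apart from the smaller samples by construction.

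All probe sets called under quantile normalization numbered 2400 for ARG against NTG (4355 in the main analysis), 633 for GLY against NTG (2286), 398 when AC5 was set against NTG (64), 58 in ARG against GLY (678), 889 in ARG against AC5 (2220), 165 in GLY against AC5 (312) and 2079 in the F-test (4160). Within replicates 1 to 3 and 4 to 6 they were 1302 and 2517 in ARG against NTG, and 72 within replicates 4 to 6 in GLY against NTG. For AC5 against NTG they were 18 and 0 within the sets, 188 without 3 arrays, 525 with array weights and 299 alone. GLY against NTG gave 1312 without 3 arrays and 1247 alone. ARG against GLY gave 182 and 192 within the sets and 95 alone. ARG against AC5 gave 244 and 1370 within the sets and 3540 without 3 arrays. GLY against AC5 gave 94 and 16 within the sets and 126 alone, and the F-test 1647 and 1503. Leaving out 1 array gave 3490 to 4821 for ARG and 1337 to 3961 for GLY when set against NTG (over 1.5 times from the count without NTG replicate 3 or GLY replicate 3 or 6), and 1588 to 2519 in ARG against AC5. It gave 22 to 90 for AC5 set against NTG (without NTG replicate 1, 2, 3, 5 or 6 or AC5 replicate 2, 3 or 6), 382 to 1781 in ARG against GLY (without GLY replicate 1, 5 or 6 or ARG replicate 1, 2 or 4), 157 to 583 in GLY against AC5 (without AC5 replicate 1, 2, 5 or 6 or GLY replicate 3 or 6) and 3417 to 5742 in the F-test. Because ratios hold no signal over background, weak and strong probe sets were treated alike.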
